A study of Mus musculus with 13 samples.

Results

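The genes followed here in mouse pancreas, 10 in all, are used as markers of pancreatic stellate cells, pericytes and fibroblasts. They are Pdgfra, Pdgfrb, Acta2, Tagln, Des, Vim, Cspg4, Rgs5, Pdpn and Dpt. They were taken from the table by their Entrez identifiers, matched to these symbols in the mouse annotation, and all 10 were found among its 23366 genes. RNA sequencing had been done on the pancreas of 13 reprogrammable female mice with 1 library per mouse. These mice, named i4F-B in the study's methods, carry a ubiquitous doxycycline-inducible transgene of Oct4, Sox2, Klf4 and Myc (OSKM), inserted into the Pparg gene. The study describes its untreated young and old controls as reprogrammable mice too, so they carry the same transgene. The young group held 4 untreated mice of 13 weeks and the old group 5 untreated mice of 55 weeks. The old-OSKM group held 4 mice that received doxycycline in the drinking water for 7 days from 55 weeks on and then recovered for 2 weeks. The sample labels give these treated mice an age of 58 weeks, so doxycycline, OSKM and 3 more weeks of age cannot be told apart in their comparison with the old mice. The replicate numbers used below only name the mice.

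The cells marked by these genes form the mesenchyme between acini, around ducts and along vessels. Platelet-derived growth factors (PDGFs), released by endothelial and other cells, bind receptors on pericytes, stellate cells and fibroblasts and drive their recruitment and growth. Quiescent pancreatic stellate cells store retinoids and carry desmin, and when activated they take on smooth muscle actin and lay down collagen. None of the 10 genes belongs to a single cell type. Acta2, Tagln and Des are also made by vascular smooth muscle, Vim by most mesenchymal, endothelial and immune cells, and Pdpn by mesothelium and lymphatic endothelium. In bulk tissue such as this, fewer cells of a type and less RNA per cell cannot be told apart.

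The short stretches of DNA shown here belong to 3 members that encode cytoskeletal proteins, Acta2, Vim and Des. Each stretch lies before the start used for that member's promoter window. Acta2 had the smallest and Vim the largest difference between old-OSKM and old mice of the cytoskeletal members. They come from RefSeq promoter windows of assembly GRCm38.p6 (mm10), which span 250 bases before and 50 bases after a gene's start and exist for 8 of the 10 members. The capitals mark CArG boxes, the element read by serum response factor (SRF), in Acta2, and the sequence TATAAA in Vim. The Acta2 boxes begin 84 and 34 bases before the start used for its window, on chr19:34255438-34255467 and chr19:34255388-34255417, minus strand. The annotated interval of Acta2, chr19:34240336-34255585, reaches further upstream, so both boxes lie inside it.
Acta2, distal box: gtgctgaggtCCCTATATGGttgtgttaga
Acta2, proximal box: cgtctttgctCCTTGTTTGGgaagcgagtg
Vim, TATAAA: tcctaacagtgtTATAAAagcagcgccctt
Des, upstream: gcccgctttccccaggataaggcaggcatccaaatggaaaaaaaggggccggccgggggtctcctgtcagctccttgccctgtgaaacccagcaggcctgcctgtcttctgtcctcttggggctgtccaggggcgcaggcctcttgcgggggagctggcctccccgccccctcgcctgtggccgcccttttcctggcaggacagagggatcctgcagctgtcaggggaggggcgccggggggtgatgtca

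The Vim stretch is chr2:13574267-13574296 and the Des stretch chr1:75360042-75360291, both on the plus strand. GENCODE also draws a first exon over the Acta2 and Vim stretches, from transcripts with starts further upstream. The CArG box was searched by its name's consensus on both strands. The strict form occurred in 1.63% of 32851 promoter windows and in 0 of the 8 members. With 1 G or C allowed among the inner bases it occurred in 9.98% of windows, and Acta2 was the member that held it. At least 2 such boxes, as in Acta2, stood in 0.822% of windows. TATAAA on the gene's strand occurred in 8.32% of windows and in 2 members, Vim and Dpt. Relative to the start it began at -32 in Vim, before it, and at 12 in Dpt, after it. A match is a description of the letters, and its absence from Des says only that these letters are not in this window.

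Levels are log2 RPKM (reads scaled to the length of the transcript and to the total of mapped reads, on a log2 scale), as the authors estimated and quantile normalized them. Because RPKM is taken per length, levels can be set side by side between genes. Averaged over the 13 mice, the level of Vim was 2.16 log2 RPKM, the highest of the 10 and above 93.6% of all genes. It was followed by the levels of Rgs5 at 1.70, Dpt at 1.46, Pdgfra at 0.92 and Pdgfrb at 0.47 log2 RPKM. Acta2 and Tagln had the same rank within their spread, at 0.11 and 0.10 log2 RPKM, and Acta2 was the higher of the pair in 6 of 13 mice. Pdpn (-0.13 log2 RPKM) and Des (-0.39) did not separate either, with Pdpn higher in 8 of 13 mice. Cspg4 was lowest at -1.06 log2 RPKM, below Des in all 13 mice and near the middle of all genes. Vim lay above Rgs5 in all 13 mice, Rgs5 above Dpt in 12 and Dpt above Pdgfra in 13.

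**Figure D1:**
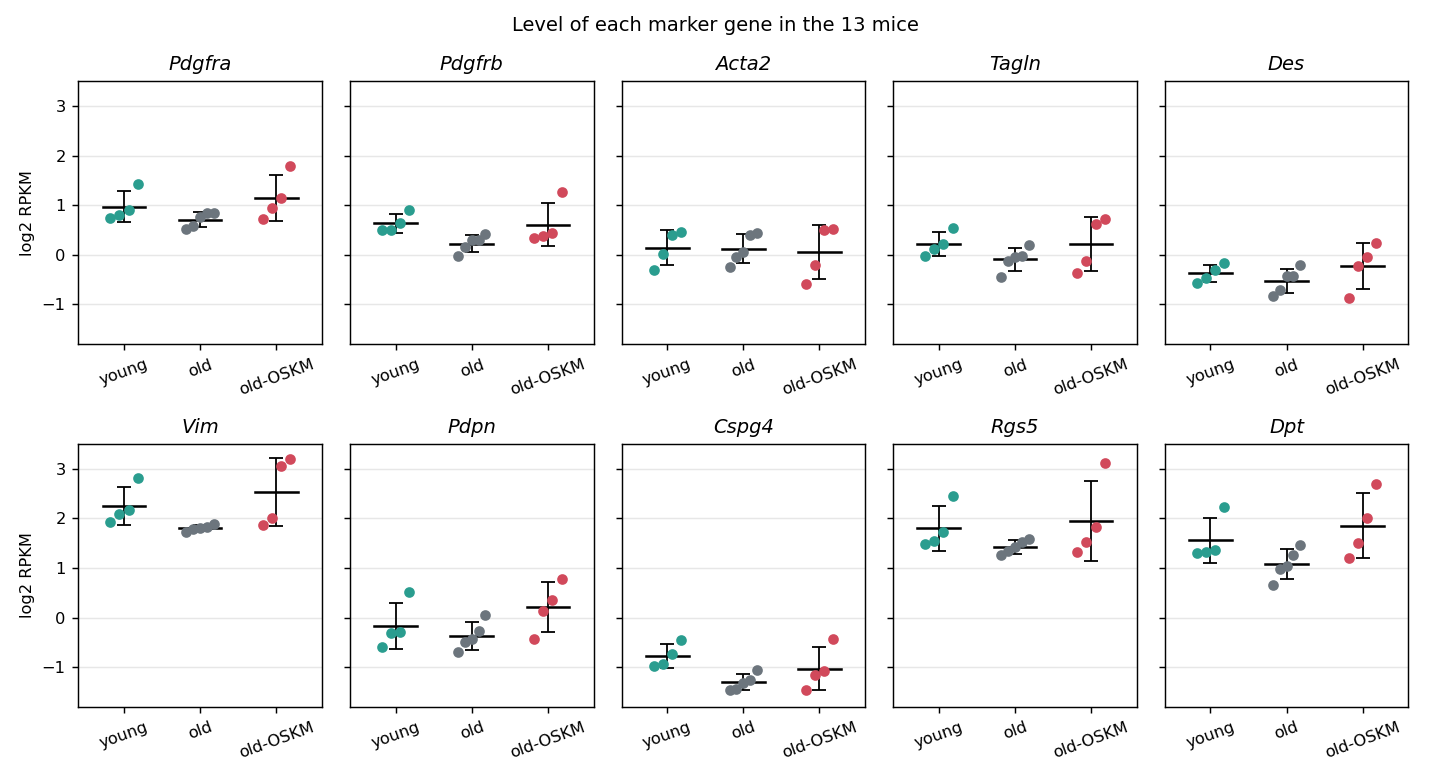
Level of each of the 10 genes (log2 RPKM, same vertical scale in every panel) in 4 young, 5 old and 4 old-OSKM mice. Points are mice, sorted by value within a group, the long bar is the group mean and the error bars are the SD; the highest old-OSKM point stands above all old mice in every panel.

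Before the comparisons, 3 mice need to be set apart by measures outside the 10 genes. The mean of the gene-wise z-scores over all genes was -0.352 in old-OSKM mouse 1 and -0.568 in old-OSKM mouse 4, against -0.0896 to 0.217 in the other mice. The summed level of 5 adipocyte markers was 6.24 RPKM in old-OSKM mouse 1 and 2.16 RPKM in old-OSKM mouse 4, compared with 0.513 to 0.627 RPKM in the old and 0.578 to 1.39 RPKM in the young mice. The summed level of 5 macrophage markers was 26.1 and 25 RPKM in these mice, against 6.95 to 11.6 RPKM in the old group. Old-OSKM mouse 4 and young mouse 4 had the highest sums of 6 blood endothelial markers, at 24.8 and 19.9 RPKM, against 10.3 to 13.4 RPKM in the old mice. Acinar markers summed to 7909 RPKM or more in every mouse. This sum is carried by genes at the top of the values, where quantile normalization largely sets the level. Cela2a, for instance, was 11.0046 log2 RPKM in every mouse. The sum therefore cannot show whether acinar content differed between mice. The sample identifiers form 2 runs, 609 to 621 and 641 to 643, and the second holds young mice 3 and 4 and old mouse 5. The labels do not say what the runs stand for. The table holds no counts, so the depth of each mouse is unknown here, no counting error can be given, and p-values measure the spread between mice.

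Between old and young mice, all 10 genes had a lower mean in the old group, with differences from -0.53 for Cspg4 to -0.02 for Acta2 and a median of -0.34 on the log2 scale. Among all genes 45.5% were lower, with a median difference of 0.0012. None of the 10 passed the study's definition of a changed gene, a change of more than 1.5-fold with p under 0.01 in limma before adjustment, which 0.886% of all genes passed. A raw limma p under 0.05 was reached by 2 of the 10, Cspg4 and Pdgfrb, where 2.52% of all genes reached it in the lower direction. Benjamini-Hochberg adjusted limma p-values over all genes ran from 0.69 to 1, while 0.0813% of all genes were under 0.05. The old and young values did not overlap in 3 of the 10, Pdgfrb, Vim and Cspg4, compared with 1.22% of all genes in the same direction. In each of these 3 the two-sided exact permutation p was 0.016, the smallest that 5 against 4 mice can give, among 30 such tests over the 10 genes and 3 comparisons. Without young mouse 4, 8 of 10 were lower and the median was -0.17. Among the mice of the first run of identifiers alone, 9 of 10 were lower with a median of -0.13.

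Between old-OSKM and old mice, 9 of the 10 genes had a higher mean after OSKM, and the median difference was 0.41 on the log2 scale. Among all genes 36.9% were higher, with a median of -0.0386. The largest differences were those of Dpt (0.77) and Vim (0.73), and Acta2 (-0.07) was the exception. Again 0 of the 10 were called by limma, against 0.753% of all genes. A raw limma p under 0.05 was reached by 2, Vim and Dpt, where 3.98% of all genes reached it in the higher direction, and the smallest adjusted p was 0.547, while 0.00428% of all genes were under 0.05. In 0 of the 10 did the groups stand apart without overlap, against 1.73% of all genes. The 5 old mice serve in this comparison and in the one by age, so the opposite signs are not separate observations. With old-OSKM mice 1 and 4 both left out, a choice made after the data were seen, 7 of 10 were higher and the median was 0.13. With the mean z-score over all genes as a covariate, 8 of 10 were higher and the median was 0.15. Within the first run of identifiers the median was 0.39, with 9 of 10 higher.

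Between old-OSKM and young mice, 7 of the 10 genes were higher and 3 lower in old-OSKM mice, with a median difference of 0.15. Among all genes 38.7% were higher, with a median of -0.0382. None was called by limma, where 0.625% of all genes were, and 0 reached a raw p under 0.05, against 5.07% of all genes. An adjusted p under 0.05 was found in 0 of the 10 and in 0.0428% of all genes. The differences ran from -0.25 for Cspg4 to 0.38 for Pdpn, and the groups overlapped in all 10, where 1.9% of all genes did not overlap. With old-OSKM mice 1 and 4 left out, 9 of 10 were lower than in young mice, with a median of -0.29.

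**Figure D2:**
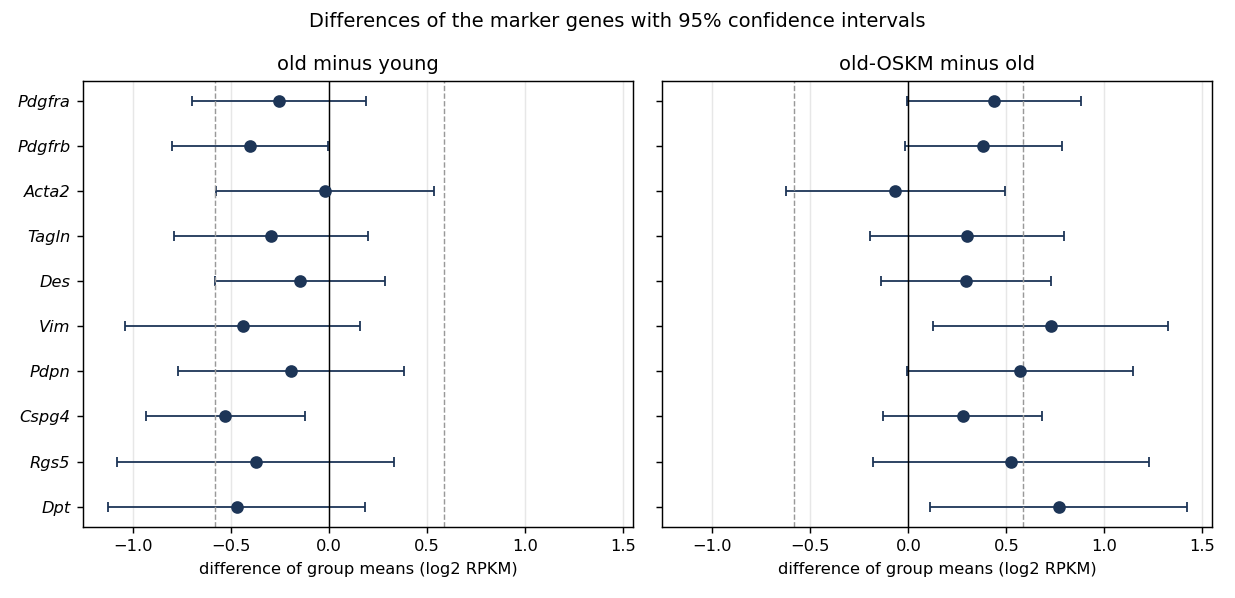
Difference of group means for each of the 10 genes (log2 RPKM) with 95% confidence intervals from limma, old minus young on the left and old-OSKM minus old on the right. The dashed lines mark a fold change of 1.5; all 10 points lie below 0 on the left, 9 of 10 lie above 0 on the right, and most intervals cross 0.

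In both PDGF receptors the mean was lowest in the old mice. Pdgfra (Entrez 18595, chr5:75151322-75198206), the alpha receptor found on fibroblasts and their progenitors, was at 0.81, 0.73, 0.90 and 1.42 log2 RPKM in young mice 1 to 4. In old mice 1 to 5 it was at 0.75, 0.85, 0.52, 0.85 and 0.58, and in old-OSKM mice 1 to 4 at 1.14, 0.93, 0.73 and 1.79. No old mouse was above 0.85, and 3 of the 4 old-OSKM mice were above all of them. The old-OSKM mean exceeded the old mean by 0.44 (standard error 0.20, 95% interval -0.01 to 0.88, adjusted limma p = 0.547, exact permutation p = 0.079), and the old minus young difference was -0.26 (95% interval -0.70 to 0.19). The first became 0.22 without old-OSKM mouse 4 and 0.12 without mice 1 and 4, and the second -0.10 without young mouse 4. Exons of the predicted genes Gm42802 and Gm42803 on the opposite strand cover 4.55% and 1.66% of the exon bases of Pdgfra. The labels do not state that the libraries mark strand, so such reads cannot be told apart.

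Pdgfrb (Entrez 18596), the beta receptor that pericytes depend on, was at 0.63, 0.49, 0.49 and 0.91 log2 RPKM in the young mice. The old mice had 0.30, 0.30, -0.03, 0.41 and 0.15, all below the lowest young mouse. The old-OSKM mice had 0.44, 0.38, 0.34 and 1.27, so that mouse 4 stood apart from the other 3. The old minus young difference was -0.40 (standard error 0.18, 95% interval -0.80 to -0.01, adjusted limma p = 0.88, exact permutation p = 0.016). The old-OSKM minus old difference was 0.38 (standard error 0.18, 95% interval -0.02 to 0.78, adjusted limma p = 0.547, exact permutation p = 0.048) and was 0.16 without old-OSKM mouse 4.

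The contractile markers overlapped between all groups. Acta2 (Entrez 11475, chr19:34240336-34255585) encodes smooth muscle actin, the usual marker of myofibroblasts and activated stellate cells. It was at 0.02, -0.31, 0.46 and 0.40 log2 RPKM in young, 0.06, -0.05, 0.44, 0.39 and -0.24 in old, and 0.53, -0.21, -0.59 and 0.49 in old-OSKM mice. The lowest and the highest values of all 13 mice were both in the old-OSKM group. The old minus young difference was -0.02 (95% interval -0.58 to 0.54) and the old-OSKM minus old difference -0.07 (95% interval -0.62 to 0.49), with a change of 1.5-fold in either direction close to the limits of both. The second became -0.52 without old-OSKM mice 1 and 4 and -0.41 with the mean z-score as covariate. Sequence shared with other actins was small, since 7 of 1986 windows of 50 bases in the Acta2 transcript also occur in Actg1 and 0 in Actg2, Acta1, Actc1 or Actb. Of these paralogs, smooth muscle gamma actin Actg2 differed by 0.22 and -0.52 in the old minus young and old-OSKM minus old comparisons, with intervals across 0.

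Tagln (Entrez 21345, chr9:45929628-45936058) encodes transgelin, an actin-binding protein of smooth muscle. Its levels were -0.03, 0.21, 0.12 and 0.54 log2 RPKM in young mice and -0.13, -0.02, 0.20, -0.04 and -0.44 in old mice. Old-OSKM mice 1 and 4 had 0.62 and 0.73, the highest of all mice, while mice 2 and 3 had -0.12 and -0.37. The differences were -0.30 between old and young (95% interval -0.79 to 0.20) and 0.30 between old-OSKM and old (95% interval -0.20 to 0.79). The first became -0.19 without young mouse 4 and the second -0.16 without old-OSKM mice 1 and 4. Exons of Gm48529 on the opposite strand cover 62.4% of the exon bases of Tagln, and exons of Pcsk7 cover 5.43%, so its level is uncertain.

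Of the intermediate filament genes, Des was scattered and Vim split the old-OSKM mice. Des (Entrez 13346, chr1:75360292-75368579) encodes desmin, a filament of muscle, pericytes and stellate cells. It was at -0.30, -0.46, -0.56 and -0.17 log2 RPKM in young, -0.43, -0.70, -0.43, -0.21 and -0.83 in old, and 0.23, -0.86, -0.23 and -0.05 in old-OSKM mice. Old-OSKM mouse 1 was the highest and mouse 2 the lowest of all 13. The old minus young difference was -0.15 (95% interval -0.58 to 0.28) and the old-OSKM minus old difference 0.29 (95% interval -0.14 to 0.73). The latter was 0.14 without old-OSKM mouse 1, 0.50 without mouse 2 and -0.03 without mice 1 and 4. The former was -0.08 without young mouse 4, -0.23 without old mouse 4 and -0.07 without old mouse 5. Exons of Gm15179 on the opposite strand cover 5.86% of its exon bases.

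Vim (Entrez 22352, chr2:13574311-13582826) encodes vimentin, the filament of mesenchymal cells. It was at 2.17, 2.09, 1.92 and 2.80 log2 RPKM in young mice and at 1.83, 1.78, 1.72, 1.89 and 1.8 in old mice. The 5 old mice had an SD of 0.063, and each lay below the lowest young mouse. Old-OSKM mice 1 and 4 had 3.05 and 3.20, above every other mouse, whereas mice 2 and 3 had 2.00 and 1.87, close to the old group. The old-OSKM minus old difference was 0.73, or 1.65-fold (standard error 0.27, 95% interval 0.12 to 1.33, adjusted limma p = 0.547, exact permutation p = 0.032). It was 0.13 without old-OSKM mice 1 and 4, and it passed the call when either mouse 2 or mouse 3 was left out (0.90 and 0.94, adjusted p = 0.38 and adjusted p = 0.18 in limma). The old minus young difference was -0.44 (95% interval -1.04 to 0.16), for which the exact permutation p was 0.016, and -0.26 without young mouse 4. In old-OSKM mice 1 and 4 the macrophage markers, whose cells also make vimentin, summed to the values given above, and their part in the Vim level was not tested.

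Of the pericyte markers, Cspg4 separated old from young mice and Rgs5 did not. Cspg4 (Entrez 121021, chr9:56865104-56899870) encodes the proteoglycan NG2 on the surface of pericytes. It was at -0.94, -0.74, -0.97 and -0.44 log2 RPKM in young mice and at -1.46, -1.32, -1.05, -1.43 and -1.25 in old mice, with no overlap. The old-OSKM mice had -1.46, -1.07, -1.15 and -0.43, so that 3 of them lay within or next to the old range and mouse 4 stood beside the highest young mouse. The old mean was lower than the young mean by a difference of -0.53, a 1.44-fold gap (standard error 0.19, 95% interval -0.94 to -0.12, adjusted limma p = 0.69, exact permutation p = 0.016). Without young mouse 4 the difference was -0.42. The old-OSKM minus old difference was 0.28 (95% interval -0.13 to 0.68), and it was 0.08 without old-OSKM mouse 4 and 0.42 without mouse 1.

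Rgs5 (Entrez 19737, chr1:169655501-169695813) encodes a regulator of G-protein signalling that is abundant in pericytes. It was at 1.48, 1.53, 1.72 and 2.46 log2 RPKM in young mice, 1.42, 1.58, 1.25, 1.53 and 1.33 in old mice, and 1.82, 1.53, 1.33 and 3.11 in old-OSKM mice. Old-OSKM mouse 4 and young mouse 4 were the highest, and the remaining old-OSKM mice overlapped the old group apart from mouse 1. The old minus young difference was -0.38 (95% interval -1.08 to 0.33) and the old-OSKM minus old difference 0.53 (95% interval -0.18 to 1.23). The former was -0.16 without young mouse 4 and the latter 0.14 without old-OSKM mouse 4. Those 2 mice also had the highest sums of blood endothelial markers, and the part of vessel content in the Rgs5 level was not tested.

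Pdpn and Dpt are often used to gate or stain fibroblasts. Pdpn (Entrez 14726, chr4:143267409-143299564) encodes podoplanin, a mucin-like surface glycoprotein. It was at -0.30, -0.30, -0.59 and 0.50 log2 RPKM in young, -0.26, -0.50, -0.68, -0.44 and 0.05 in old, and 0.35, 0.14, -0.43 and 0.77 in old-OSKM mice. Old-OSKM mice 1, 2 and 4 were above all old mice, and mouse 3 lay inside their range. The old-OSKM minus old difference was 0.57 (standard error 0.26, 95% interval -0.0044 to 1.15, adjusted limma p = 0.547, exact permutation p = 0.063), and the old minus young difference was -0.19 (95% interval -0.77 to 0.38). The first became 0.22 without old-OSKM mice 1 and 4, and the second 0.03 without young mouse 4. The summed level of 5 mesothelial markers was 0.895 to 3.07 RPKM in old and 1.98 to 5.58 RPKM in old-OSKM mice, and that of 4 lymphatic endothelial markers was 2.33 to 3.42 and 2.77 to 5.34 RPKM. Their part in the Pdpn level was not tested.

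Dpt (Entrez 56429, chr1:164796663-164824274) encodes dermatopontin, a matrix protein that marks fibroblasts of many organs. It was at 1.32, 1.36, 1.30 and 2.23 log2 RPKM in young mice and at 1.05, 1.47, 0.65, 1.26 and 0.98 in old mice. The old-OSKM mice had 2.01, 1.5, 1.2 and 2.68, with mice 1, 2 and 4 above all old mice. The old-OSKM minus old difference was 0.77, or 1.70-fold (standard error 0.30, 95% interval 0.11 to 1.42, adjusted limma p = 0.547, exact permutation p = 0.063). It was 0.49 without old-OSKM mouse 4, 0.27 without mice 1 and 4, and 0.98 without mouse 3, where it passed the call (adjusted p = 0.18 in limma). The old minus young difference was -0.47 (95% interval -1.13 to 0.18), and -0.25 without young mouse 4.

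The old-OSKM mice were unlike each other over the 10 genes. Old-OSKM mouse 4 was the highest of all 13 mice in 8 of the 10 genes and among the top 2 in all 10. Old-OSKM mouse 1 was highest in the other 2, Acta2 and Des, and lay above every old mouse in 9 genes, Cspg4 being the exception. Old-OSKM mouse 2 lay above every old mouse in 4 genes, Pdgfra, Vim, Pdpn and Dpt, and old-OSKM mouse 3 in 0. Relative to the old mean, the median difference over the 10 genes was 0.57, 0.18, 0.05 and 1.06 in old-OSKM mice 1 to 4. In young mice 1 to 4 it was 0.16, 0.19, 0.22 and 0.79. Young mouse 4 lay above every old mouse in 9 genes, all but Acta2. The summed level of the 10 genes was 14 to 16.4 RPKM in old mice, 16.9 to 27.5 RPKM in young mice and 14.9 to 36.6 RPKM in old-OSKM mice.

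**Figure D3:**
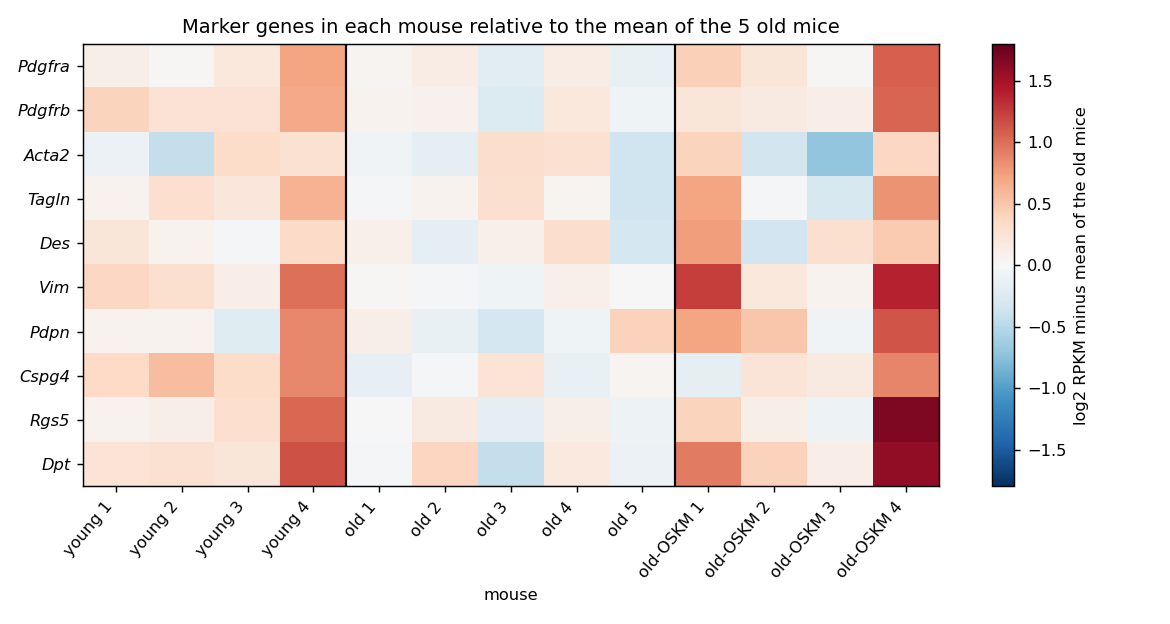
Each of the 10 genes in each of the 13 mice as the log2 RPKM minus the mean of the 5 old mice; red is higher, blue is lower, and black lines part the groups. Old-OSKM mouse 4 and young mouse 4 are red in all 10 rows, old-OSKM mouse 1 in 9, and old-OSKM mice 2 and 3 are pale in most rows.

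Across the 13 mice the genes tended to be high in the same animals, as the plot of differences by mouse shows. All 45 pairs had a positive Pearson correlation, from 0.136 to 0.975 with a median of 0.699, which describes values that share mice, libraries and normalization. Pairs of unlike role gave both the highest r, 0.975 for Pdgfra and Rgs5, and the lowest, 0.136 for Des and Cspg4. For 5 pairs of like role, correlations were tested by permutation with the 3 groups pooled. Such tests concern each pair alone and cannot show that a like role made the pair closer. Pdgfra and Pdgfrb had r = 0.921 (permutation p = 0.00016, adjusted over the 5 pairs 0.0008) and Spearman's rho = 0.742 (permutation p = 0.0047, adjusted 0.024). For each pair, r was also taken without the 2 mice farthest from the median of the gene named first, so the mice left out differ between pairs. Here they were old-OSKM mouse 4 and young mouse 4, and r became 0.648. The first run of identifiers gave r = 0.897 over 10 mice. Acta2 and Tagln had r = 0.735 (permutation p = 0.0033, adjusted 0.005) and rho = 0.687 (permutation p = 0.012, adjusted 0.03). Their r was 0.617 without old-OSKM mice 1 and 3, the 2 farthest, and 0.721 in the first run.

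Des and Vim had r = 0.728 (permutation p = 0.004, adjusted 0.005) and rho = 0.577 (permutation p = 0.043, adjusted 0.054). Their r was 0.674 without old-OSKM mice 1 and 2, the 2 farthest, and 0.706 in the first run. Pdpn and Dpt had r = 0.848 (permutation p = 0.0008, adjusted 0.002) and rho = 0.643 (permutation p = 0.021, adjusted 0.035). Their r was 0.603 without old-OSKM mouse 4 and young mouse 4, the 2 farthest, and 0.92 in the first run. The pericyte pair, Cspg4 and Rgs5, had r = 0.699 (permutation p = 0.019, adjusted 0.019), rho = 0.335 (permutation p = 0.27, adjusted 0.27) and 0.605 in the first run. Without old-OSKM mouse 4 and young mouse 4 its r was -0.132, so this relation rests on those mice.

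The genes whose levels followed a member most closely were listed for 3 of them, among 8410 genes with a mean above 0 log2 RPKM. For Pdgfrb they were Eng (endoglin, r = 0.987), Esam (0.959), Lamb1 (0.949), Gsn (0.945) and Podxl (0.944). Of these, Eng, Esam and Podxl are known from endothelium, and Gsn was in the list of other fibroblast genes examined below. For Dpt they were Timp2 (0.982), Pros1 (0.978), C1s1 (0.976), Lum (0.974) and Ddr2 (0.973), of which lumican and the collagen receptor Ddr2 are known from fibroblasts. For Acta2 they were 2010315B03Rik (0.844), Actn4 (0.769), Rffl (0.762), Wdr12 (0.744) and Ckap5 (0.742), with lower values than for the other 2 members. These are descriptions over 13 mice, in which old-OSKM mouse 4 carries much of the range of Pdgfrb and Dpt.

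Related genes outside the 10 were examined by lists. Of all 23366 genes, 1290 reached a raw limma p under 0.05 in either direction between old and young mice. Between old-OSKM and old mice 1885 did, and the counts below are to be read beside these. The PDGF ligands, which signal to Pdgfra and Pdgfrb, gave 0 of 4 calls in limma in either comparison, with 1 raw p under 0.05. Their median difference was -0.10 between old and young and 0.17 between old-OSKM and old mice. These became -0.05 without young mouse 4 and 0.02 without old-OSKM mice 1 and 4. Pdgfc, a ligand of the alpha receptor, had the largest old-OSKM minus old difference at 0.39 (95% interval 0.02 to 0.77, adjusted limma p = 0.547, exact permutation p = 0.032), followed by Pdgfd at 0.28, Pdgfb at 0.07 and Pdgfa at -0.01.

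The other fibroblast genes had the same signs as Dpt. All 17 had a lower mean in old than in young mice, and the median difference was -0.55. By the study's definition 2 collagen genes fell, Col3a1 (-1.04, adjusted p = 0.51 in limma) and Col1a1 (-0.93, adjusted p = 0.47), where 0.437% of all genes fell. All 17 were higher in old-OSKM than in old mice, with a median of 0.67. Of these 5 rose, against 0.582% of all genes: Clec3b (0.77), the collagens Col1a1 (0.88) and Col1a2 (0.89), the matrix gene Fbln1 (0.88) and the surface marker Thy1 (0.85), each with an adjusted limma p of 0.547. In Col1a1 the old mice lay at 0.90 to 1.27 log2 RPKM and the old-OSKM mice at 2.39, 1.6, 1.42 and 2.37, so that the groups did not overlap. Without old-OSKM mice 1 and 4 all 17 were higher too, with a median of 0.27, and 0 were called, the 5 above having differences of 0.37 to 0.45. Without young mouse 4 all 17 were lower in old mice too, with a median of -0.32 and 0 called.

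Among 12 further pericyte genes 0 were called by limma in either comparison, where 1 and 2 had a raw p under 0.05, with medians of -0.04 between old and young and 0.23 between old-OSKM and old. The first became 0.05 without young mouse 4 and the second 0.10 without old-OSKM mice 1 and 4. Vtn, vitronectin, went against the list at 0.75 and -0.54 in these comparisons. Among 14 smooth muscle contractile genes 0 were called by limma, where 1 and 2 had a raw p under 0.05, and the medians were -0.06 and 0.05. The first became 0.10 without young mouse 4, and the second -0.15 without old-OSKM mice 1 and 4, where 13 of 14 were lower against 6 with all mice. The transcription factor Srf itself had an old-OSKM minus old difference of -0.18 (95% interval -0.35 to -0.01, exact permutation p = 0.063). Among 8 further stellate cell genes the medians were -0.18 and 0.26, and they became -0.07 without young mouse 4 and -0.0044 without old-OSKM mice 1 and 4. Lrat and Gfap, used to define quiescent stellate cells, were at means of -4.35 and -3.13 log2 RPKM in old mice.

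**Figure D4:**
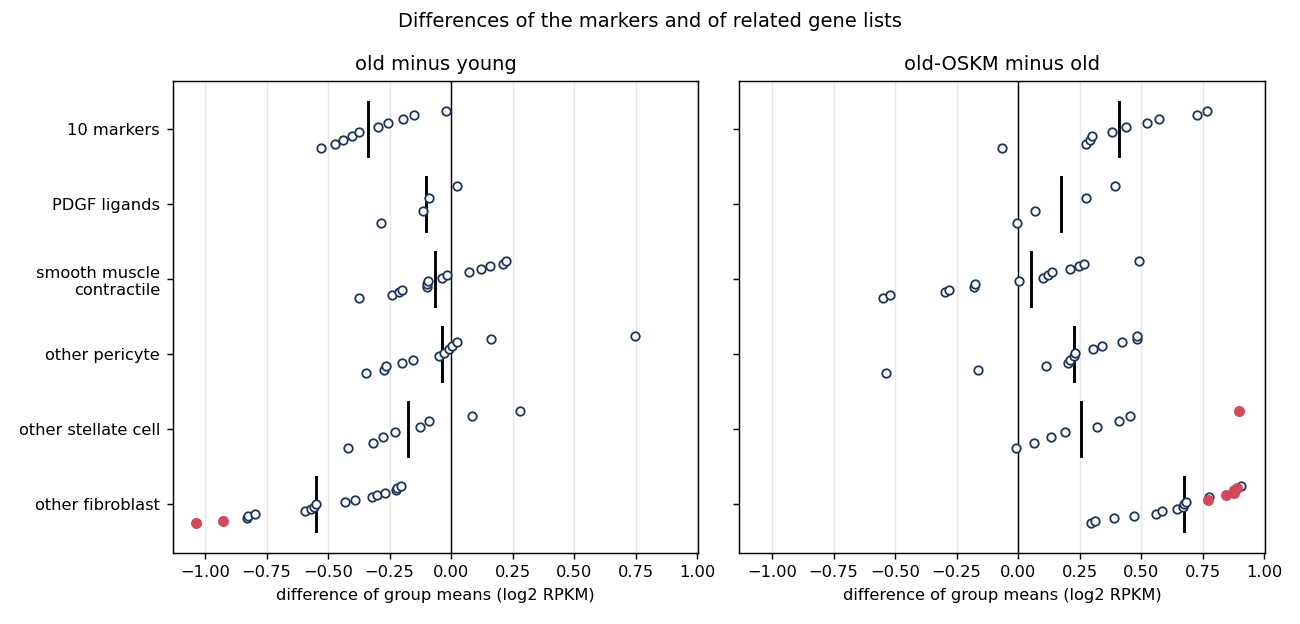
Difference of group means (log2 RPKM) for the 10 markers and for 5 related gene lists, old minus young on the left and old-OSKM minus old on the right. Each point is a gene, filled red where it was called, and the thick bar is the median of the list; the other fibroblast genes lie furthest from 0 on both sides.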

How the data were processed

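RNA of pancreas from 13 mice was sequenced after rRNA depletion with paired ends. The authors aligned the reads to mm10 with STAR 2.3.0e, estimated RPKM per isoform with Casper and joined the isoforms of each Entrez gene. The deposited values are the log2 RPKM after their quantile normalization, and between mice the sorted values were within 0.0116 of each other. The methods also name a correction for total reads. The near-equal sorted values cannot show whether such a correction was applied before that normalization. Counts and read totals per mouse were not used here, so precision rests on the mice alone.

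The 10 genes, the related lists and the tests were chosen with earlier results of these data known. All 23366 genes were fitted with limma 3.58.1 (R 4.3.3), 3 groups in 1 fit, without filter or pseudocount, and Benjamini-Hochberg adjustment ran over all genes. A call needed more than a 1.5-fold change and p under 0.01 before adjustment. Differences of single genes were also tested by two-sided exact permutation, and correlations by 100000 permutations (Python 3.11.15). The fit was tested on simulated data. Genes outside the 10 were named by a rule: every PDGF ligand, the genes of a list that were called, otherwise the smallest raw p, the actin paralogs, and the 5 most alike genes of Pdgfrb, Acta2 and Dpt; not all of them are discussed, and some results are not reported here. Gene symbols existed for 23273 genes. Alternatives were median centring, pseudocounts of 1 and 0.1, a filter at a mean of 0, 2 groups alone, trend and robust moderation, 2 covariates and each mouse left out.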

Additional observations from a re-analysis of the deposited data

Results flagged for a closer look

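In 2 of the 30 combinations of gene and group, 1 mouse stood far from the rest of its group, where chance gives about 5% of groups. Pdgfrb in old-OSKM mice was highest in mouse 4, at 1.27 log2 RPKM, and the next mouse was at 0.44. Dpt in young mice was highest in mouse 4, at 2.23 log2 RPKM, and the next was at 1.36. Each of these mice was high in other members too: old-OSKM mouse 4 lay above every old mouse in 10 genes and young mouse 4 in 9. The group differences without these mice are given in the report.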

How the results depend on the processing

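The number of genes called moved with the treatment of low values. Old versus young fell from 207 to 16 (pseudocount 1), 116 (pseudocount 0.1) and 44 (genes with a mean above 0). Old-OSKM versus old fell from 176 to 2, 77 and 35 in the same order, to 90 with the mean z-score as covariate and to 80 without old-OSKM mice 1 and 4. Old-OSKM versus young fell from 146 to 8, 76 and 19. Fewer genes were tested under the filter; the other causes were not tested. With each mouse left out in turn, the counts of the last 2 comparisons ran from 94 (without old-OSKM mouse 1) to 338 (without old-OSKM mouse 2) and from 121 to 253. Of the 10 markers, 0 were called under every alternative, except that 0 to 2 were called between old-OSKM and old mice with 1 mouse left out.

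Of 237 marker differences per comparison under alternatives, 8, 7 and 28 changed sign. Between old and young, Acta2 became 0.014 with the run of identifiers and 0.013 with the mean z-score as covariate, 0.35 in the first run, and ran from -0.17 to 0.083 with 1 mouse left out, where Pdpn ran from -0.33 to 0.031. Between old-OSKM and old, Acta2 ran from -0.22 to 0.15 with 1 mouse left out, Tagln became -0.021 with the z-score and -0.16 without mice 1 and 4, and Des -0.027 without them. Between old-OSKM and young, with the z-score and then without mice 1 and 4, Pdgfra became -0.089 and -0.13, Tagln -0.29 and -0.46, Vim -0.084 and -0.31, Rgs5 -0.29 and -0.37, and Dpt -0.11 and -0.20; Des became -0.18 without those mice. Tagln became -0.031 with the run as covariate, and in the first run Pdgfrb became 0.048 and Acta2 0.20. With 1 mouse left out, Pdgfra ran from -0.032 to 0.34, Pdgfrb from -0.24 to 0.071, Acta2 from -0.24 to 0.13, Tagln from -0.17 to 0.20, Des from -0.011 to 0.35 and Rgs5 from -0.24 to 0.37. No paired analysis was possible because the groups were separate mice with 1 library each.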

Other observations

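Markers of other cell types were compared by list. A raw limma p under 0.05 in either direction was reached by 1290 of all 23366 genes between old and young mice. Between old-OSKM and old mice it was reached by 1885. In 5 of 5 lymphocyte markers the mean was higher in the old than in the young mice, with a median difference of 0.95, and Jchain, the joining chain of antibodies, rose by 2.35 (adjusted limma p = 0.55, exact permutation p = 0.048). Jchain was no longer called without young mouse 4, nor in the fit without old-OSKM mice 1 and 4. All 5 adipocyte markers were higher in old-OSKM than in old mice with a median of 1.39, and Plin1, the coat protein of lipid droplets, rose by 1.53 (adjusted limma p = 0.547, exact permutation p = 0.032). In old mice Plin1 lay at only -3.44 to -2.67 log2 RPKM, where log2 differences depend on the treatment of low values. The 5 macrophage markers were higher with a median of 0.67, and 0 were called by limma, although 4 had a raw p under 0.05. Without old-OSKM mice 1 and 4 the medians of these 2 lists were 0.25 and 0.25, and Plin1 had a difference of 0.60 (95% interval -0.10 to 1.31) and was no longer called. Blood endothelial markers were lower in old mice in 6 of 6 genes (median -0.32) and higher after OSKM in 6 of 6 (median 0.32), with 0 called in either by limma; 1 had a raw p under 0.05 in the first comparison and 0 in the second. The first median was -0.16 without young mouse 4, and without old-OSKM mice 1 and 4 the second was 0.0018 with 3 of 6 higher. In the acinar, duct, islet, skeletal muscle, mesothelial and lymphatic endothelial lists limma made no call in either comparison. Mesothelial medians were -0.59 between old and young and 0.88 between old-OSKM and old mice, with 5 of 5 genes higher in the second. They became -0.31 without young mouse 4 and 0.59 without old-OSKM mice 1 and 4. Lymphatic endothelial medians were -0.17 and 0.43 (0.14 without old-OSKM mice 1 and 4), and islet medians 0.28 and -0.49. The acinar medians were 0 and -0.06, the duct medians -0.07 and -0.08, and the skeletal muscle medians -0.01 and 0.03.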
